A study of Mus musculus with 18 samples.

Results

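The data followed 10 genes that mark mature neutrophils across all 18 RNA sequencing libraries, in 6 groups of 3 replicates. The genes were Csf3r, Cxcr1, Trem1, Ceacam1, Cd177, Ly6g, Ifitm6, Retnlg, Stfa2l1 and Padi4. They were chosen by symbol, with no measured value in the rule but with earlier results of these data known. They are 10 of the 49585 genes in the count table. All 10 passed the filter on low counts in both model fits described below. In the lymph node fit Ly6g, and in the inflamed fit Cxcr1, passed only through the group where it was highest. Their calls that use that group are not independent of the filter.

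The mice were of the Kaede strain, aged 6 to 10 weeks, whose cells carry a fluorescent protein that violet light turns from green to red, so that cells present in a lit tissue can be found again after they leave it. Inflamed mice had been given Th1-polarized T cells from OT-II CD45.1 donors, which recognise ovalbumin, then ovalbumin in Complete Freund's Adjuvant, and 10 days later 100 µg of heat-aggregated ovalbumin (HAO) in the footpad (joint) or the ear pinna (skin). Viable CD45+ Kaede red cells were sorted from pooled samples the day after light was applied: red cells still in the tissue formed the joint nonmigrated and skin nonmigrated groups, and red cells found in the draining lymph node formed the joint migrated and skin migrated groups. The labels describe the remaining groups, joint steady state and skin steady state, as cells that had moved to the node of joint or ear without inflammation. Titles of the joint steady state libraries hold PBS and KG and those of the skin steady state libraries hold Naive, and the labels do not say whether these mice had also received the T cells and adjuvant. Each library is a sort of all leukocytes, not of neutrophils, and the labels do not tie libraries to animals, so p-values measure the spread between pools.

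Neutrophils are made in the bone marrow under granulocyte colony-stimulating factor, leave it for the blood as short-lived cells, and enter inflamed tissue by rolling on and crossing vessel walls along chemokine gradients. Late in maturation they switch off the genes of primary and secondary granules and switch on surface receptors, adhesion molecules and the machinery for chromatin release. The 10 genes fall into those roles. Csf3r encodes the receptor for granulocyte colony-stimulating factor, Cxcr1 a receptor for CXC chemokines, and Trem1 an activating receptor that signals through the adaptor Tyrobp. Ly6g encodes the surface antigen most used to identify mouse neutrophils, Cd177 a surface protein that binds Pecam1 on endothelium, and Ceacam1 an adhesion receptor that is also found on epithelium and lymphocytes. Retnlg encodes a secreted resistin-like protein, Stfa2l1 a member of the stefin A family of cysteine protease inhibitors, Ifitm6 a small membrane protein of the interferon-induced transmembrane family, and Padi4 the enzyme that converts arginine in histones to citrulline during the release of neutrophil chromatin.

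Library totals of assigned counts ran from 19239531 to 22528895 in the inflamed skin groups, from 35554698 to 43814403 in the inflamed joint groups and from 28577566 to 42938378 at steady state. Every inflamed skin library was thus smaller than every inflamed joint library, so depth and site cannot be told apart among them. Skin migrated libraries, at 19239531 to 22378238, were also all smaller than skin steady state libraries, at 28577566 to 40055171. Depth and group cannot be told apart in that comparison either. The inflamed skin libraries alone carry an S number in their column names. Their share of reads outside any gene was 0.092 to 0.135%, against 0.227 to 0.562% in all other libraries. What lies behind this split is not given, and it cannot be told apart from site or group in the same comparisons. Levels are given in CPM, read counts per 1000000 assigned reads after scaling by the trimmed mean of M-values (TMM). A count of 3 in a library, taken as the floor, equals 0.0616 to 0.18 CPM. Ptprc, which encodes CD45, lay between 1156 and 2531 CPM in all 18 libraries. Markers of T cells, B cells, dendritic cells and macrophages were read in every group, as the sort of all leukocytes implies.

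Summed over the 10 genes, the level was highest in cells still in the inflamed tissue. The joint nonmigrated libraries held 1503, 2261 and 3553 CPM and the skin nonmigrated libraries 956, 1212 and 795 CPM. The joint steady state libraries followed with 191, 282 and 265 CPM. The remaining node groups were far lower: joint migrated libraries held 32.3, 40.5 and 78.2 CPM, skin migrated libraries 50.8, 33.6 and 46.5 CPM, and skin steady state libraries 53.4, 49.1 and 41.0 CPM. The nonmigrated groups did not overlap with each other or with any node group, and the joint steady state libraries lay apart from every other group. Ceacam1, which is not confined to neutrophils, made up a large part of the lowest sums. Its group means were 20.9 CPM in joint migrated, 26.8 in skin migrated and 39.0 CPM in skin steady state cells. A list of 17 other mature neutrophil genes summed to 671 to 736 CPM in skin migrated and 71.5 to 86.6 CPM in skin steady state libraries. In the joint it summed to 397 to 790 CPM in migrated and 582 to 1071 CPM in steady state libraries. In these mixed-cell libraries, fewer neutrophils, less RNA per neutrophil and reads from other cells cannot be told apart.

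**Figure D1:**
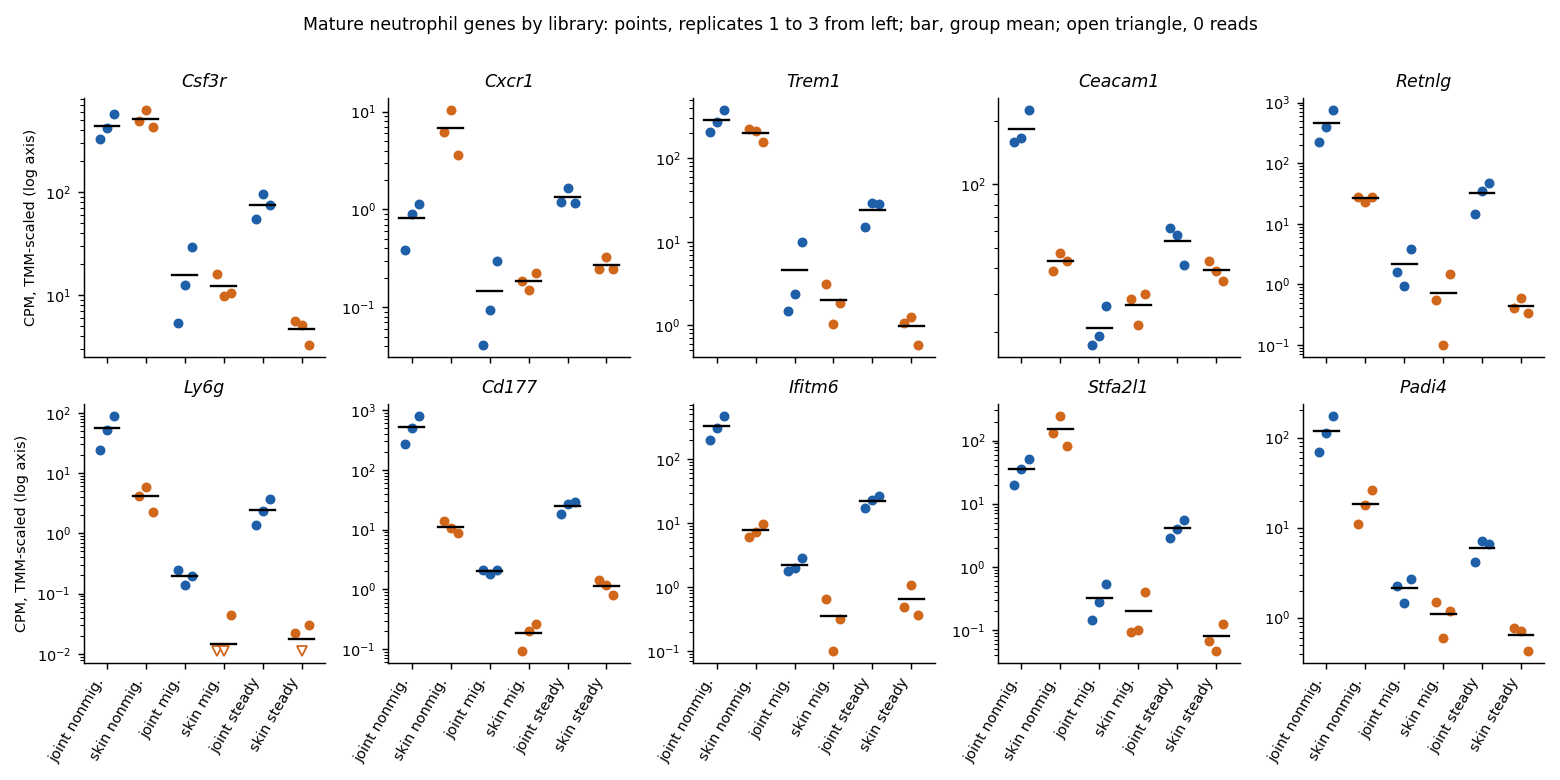
Level of each of the 10 genes in every library, in TMM-scaled CPM on a log axis, by group; blue points are joint and orange points skin libraries, black bars are group means and open triangles mark libraries with 0 reads. Joint and skin nonmigrated libraries overlap for Csf3r and Trem1, lie apart with joint higher for 6 genes, and lie apart with skin higher for Stfa2l1 and Cxcr1.

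Libraries of a group were compared for which held the highest level of each gene. In joint nonmigrated cells replicate 3 was the highest and replicate 1 the lowest for 10 of 10 genes. The highest library there was 1.43 times the lowest for Ceacam1 and 3.74 times the lowest for Ly6g, the extremes of the 10. In joint migrated cells replicate 3 was the highest for 9 of 10 genes, whereas in joint steady state cells replicates 1, 2 and 3 were the highest for 1, 4 and 5 genes. Skin nonmigrated libraries had no such common order: the ratio of highest to lowest ran from 1.21 for Ceacam1 to 3.05 for Stfa2l1.

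Ranked by CPM per kilobase of exon, which allows comparison between genes, the leading gene differed between the inflamed tissues. In joint nonmigrated cells Retnlg led with 776 ± 467 CPM per kb (SD, n = 3), followed by Ifitm6 with 361 ± 156 and Cd177 with 187 ± 94.2 CPM per kb. In skin nonmigrated cells Stfa2l1 led with 368 ± 204 CPM per kb, followed by Csf3r with 144 ± 28.2 and Trem1 with 66.2 ± 11.9 CPM per kb. In the skin steady state group Ceacam1 led with 6.72 ± 0.726 CPM per kb and Csf3r followed with 1.29 ± 0.341, while Ly6g was last in both skin node groups.

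The promoters of 2 genes that were higher in every joint than in every skin nonmigrated library, and of 2 with the reverse order, are shown. The latter 2 did not pass the threshold used below. Whether these letters bear on the difference between the sites was not tested. Each stretch is the 250 bases before the RefSeq start in GRCm38.p6, read 5′ to 3′ on the gene's strand, with matches to GAGGAA (a core of PU.1 sites) and TTGCNNAA (a form of C/EBP sites) on either strand in capitals. The regions are chr7:24760312-24760561 on the minus strand for Cd177, chr16:48872358-48872607 on the plus strand for Retnlg, chr16:36156561-36156810 on the plus strand for Stfa2l1 and chr1:74194632-74194881 on the minus strand for Cxcr1.
Cd177: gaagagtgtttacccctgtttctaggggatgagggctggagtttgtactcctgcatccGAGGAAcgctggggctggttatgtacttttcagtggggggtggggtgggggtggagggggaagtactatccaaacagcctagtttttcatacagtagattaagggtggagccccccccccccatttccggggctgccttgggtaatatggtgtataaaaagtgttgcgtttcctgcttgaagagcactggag
Retnlg: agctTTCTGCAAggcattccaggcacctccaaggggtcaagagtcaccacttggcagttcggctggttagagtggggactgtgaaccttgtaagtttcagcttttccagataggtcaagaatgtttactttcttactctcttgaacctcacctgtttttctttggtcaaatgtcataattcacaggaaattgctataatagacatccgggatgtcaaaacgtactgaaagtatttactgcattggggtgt
Stfa2l1: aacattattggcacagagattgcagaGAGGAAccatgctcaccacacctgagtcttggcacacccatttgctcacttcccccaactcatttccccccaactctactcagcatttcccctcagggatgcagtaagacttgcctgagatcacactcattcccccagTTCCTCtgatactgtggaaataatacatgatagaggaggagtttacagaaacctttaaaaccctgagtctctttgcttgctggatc
Cxcr1: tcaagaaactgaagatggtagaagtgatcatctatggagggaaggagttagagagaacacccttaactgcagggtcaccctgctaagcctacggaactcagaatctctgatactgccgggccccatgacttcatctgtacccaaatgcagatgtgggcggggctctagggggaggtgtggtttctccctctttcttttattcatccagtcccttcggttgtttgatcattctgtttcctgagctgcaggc
All 10 genes had a window in RefSeq, with 11 windows in total because Ly6g had more than 1. GAGGAA stood in a window of 6 genes (Csf3r, Ly6g, Cd177, Ceacam1, Stfa2l1 and Trem1), where 23.3% of 32851 windows of the same length hold it. TTGCNNAA stood in a window of 2 genes (Retnlg and Ly6g), where 9.56% of the windows hold it. Of the 4 windows shown, Cd177 has 1 GAGGAA match, Stfa2l1 has 2, Retnlg has 1 TTGCNNAA match and Cxcr1 has neither. A match is a description of these letters only.

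The comparison of migrated with nonmigrated cells asked which transcripts distinguished cells that left an inflamed tissue from those that stayed. Of the 10 genes, 9 were lower in joint migrated than in joint nonmigrated cells by the call used throughout, an adjusted p under 0.001 with more than a 2-fold difference (edgeR quasi-likelihood test, Benjamini-Hochberg adjustment over all genes), against 12.6% of the 16777 genes tested that were called lower. In the skin, 9 of the 10 were likewise called lower in migrated cells, against 12.4% of the genes tested. They include Cxcr1, which passed the filter only through the skin nonmigrated libraries. The libraries of migrated and nonmigrated cells did not overlap for any of the 10 genes at either site. The median log2 fold change of the 10 genes was -6.36 in the joint and -5.28 in the skin, beside 0.018 and 0.009 over all genes tested. Leaving out any library in turn left 9 genes called at each site.

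Ly6g stood at 24.1, 52.7 and 90.0 CPM in joint nonmigrated libraries and at 0.246, 0.140 and 0.193 CPM in joint migrated libraries. The groups were far apart, with a log2 fold change of -8.13 ± 0.608 (SE, adjusted p 1.27e-06, edgeR). In the skin, Ly6g was at 4.14, 5.91 and 2.29 CPM in nonmigrated libraries, from 214 reads in all. The skin migrated libraries held 0, 0 and 1 reads, which is at the floor. The ratio of skin nonmigrated to skin migrated levels was 259, with a 95% counting interval of 45.9 to 10300.

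Cd177 was at 275, 507 and 809 CPM in joint nonmigrated libraries and at 2.09, 1.78 and 2.14 CPM in joint migrated libraries. The migrated libraries were tightly grouped and the log2 fold change was -8.04 ± 0.419 (SE). Its skin migrated libraries held 0.0931, 0.200 and 0.266 CPM, from 2, 4 and 6 reads, against 13.7, 10.7 and 8.73 CPM in skin nonmigrated libraries, a log2 fold change of -5.85 ± 0.515. Retnlg fell from 221, 396 and 764 CPM to 1.60, 0.958 and 3.88 CPM in the joint. Its log2 fold change was -7.74 ± 0.712 in the joint and -5.14 ± 0.722 in the skin, where nonmigrated libraries held 27.8, 22.8 and 28.2 CPM. Ifitm6 changed by -7.22 ± 0.426 in the joint and -4.41 ± 0.50 in the skin on the log2 scale.

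Among the receptors, Csf3r stood at 329, 421 and 579 CPM in joint nonmigrated libraries and at 5.40, 12.4 and 29.4 CPM in joint migrated libraries. Replicate 3 of the joint migrated group was 5.44 times replicate 1, the widest spread of Csf3r in any group, and still lay below every nonmigrated library. The log2 fold change of Csf3r was -4.81 ± 0.536 in the joint and -5.42 ± 0.555 in the skin. Trem1, at 1.48, 2.38 and 9.91 CPM in joint migrated libraries, was also highest in replicate 3 and changed by -5.96 ± 0.665 in the joint and -6.62 ± 0.711 in the skin.

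Stfa2l1 had the largest fitted change of the 10 in the skin, a log2 fold change of -9.55 ± 0.721. It held 133, 249 and 81.5 CPM in nonmigrated and 0.0931, 0.0999 and 0.399 CPM in migrated libraries. The migrated values come from 2, 2 and 9 reads, so neither the size of this change nor its rank beside Ly6g is settled. In the joint its log2 fold change was -6.76 ± 0.614. Padi4 changed by -5.80 ± 0.464 in the joint and -4.07 ± 0.473 in the skin. The genes not called were Cxcr1 in the joint and Ceacam1 in the skin. Cxcr1 was low in both joint groups, at 0.383, 0.897 and 1.14 CPM in nonmigrated and 0.0411, 0.0934 and 0.300 CPM in migrated libraries, with a log2 fold change of -2.44 ± 0.651 (adjusted p 0.00748). Ceacam1 differed by -0.69 ± 0.195 in the skin (adjusted p 0.00998), from 38.8, 47.1 and 43.3 CPM to 28.6, 21.5 and 30.2 CPM, whereas in the joint it was called lower by -3.13 ± 0.207.

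Whether the change on migration differed between the sites was tested as an interaction. None of the 10 genes was called by edgeR, against 0.119% of the genes tested, while 7 of the 10 had an unadjusted p under 0.05 and the DESeq2 Wald test called 2, Ceacam1 and Ifitm6. Ceacam1 was closest to the threshold in edgeR, with a log2 difference between the changes of -2.44 ± 0.277 (SE, adjusted p 0.00105), and was called without replicate 3 of the skin nonmigrated group. For Ly6g the interaction rests on the 1 read of the skin migrated group, with an estimate of -0.43 (adjusted p 0.989, edgeR). Its standard error of 8.81 is derived from that small estimate and is not a reliable measure of its spread. Fits without single libraries gave -0.91 to 1.83.

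Other lists changed alongside. Of the 16777 genes tested, 1476 were called higher and 2110 lower in joint migrated cells, and 1424 higher and 2084 lower in skin migrated cells. Of 7 macrophage markers, 7 were called lower in migrated cells at each site, and their summed level was 6115 to 9237 CPM in joint nonmigrated, 1482 to 6635 CPM in skin nonmigrated, 38.3 to 107 CPM in joint migrated and 74.3 to 156 CPM in skin migrated libraries. Dendritic cell markers went the other way, with 4 of 6 called higher in joint migrated cells (Ccr7, Fscn1, Flt3 and Zbtb46) and 3 of 6 in skin migrated cells (Fscn1, Flt3 and Zbtb46). Dendritic cell markers summed to 88.7 to 137 CPM in joint nonmigrated, 405 to 1041 in skin nonmigrated, 2038 to 5247 in joint migrated and 3907 to 5499 CPM in skin migrated libraries. Of 6 T cell markers, 6 were called higher in joint migrated cells and 2, Cd8a and Cd8b1, in skin migrated cells, with sums of 122 to 253 CPM in joint nonmigrated, 261 to 695 in skin nonmigrated, 1069 to 1511 in joint migrated and 1300 to 1400 CPM in skin migrated libraries. B cell markers were called higher in migrated cells in 3 of 4 cases in the joint (Cd79a, Cd79b and Ms4a1; median log2 fold change 2.38) and 4 of 4 in the skin (median 5.24). They summed to 83.0 to 195 CPM in joint nonmigrated, 4.26 to 11.2 in skin nonmigrated, 504 to 699 in joint migrated and 91.7 to 157 CPM in skin migrated libraries. The part of these other cell types in the levels of the 10 genes was not tested.

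The next comparison, joint against skin nonmigrated cells, set the 10 genes apart from one another. Of the 10, 6 were called higher in the joint (Cd177, Ifitm6, Retnlg, Ly6g, Padi4 and Ceacam1), against 1.14% of the 16777 genes tested. Csf3r and Trem1 overlapped between the sites and were not called, and Stfa2l1 and Cxcr1 were higher in every skin than in every joint library without reaching the threshold. The joint nonmigrated libraries are the same ones used in the comparison with joint migrated cells, so these results share samples. The median log2 difference of the 10 genes, joint minus skin, was 2.38, beside 0.011 over all genes.

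Cd177 differed most, from 275, 507 and 809 CPM in joint to 13.7, 10.7 and 8.73 CPM in skin nonmigrated libraries. That is a log2 difference of 5.58 ± 0.373 (SE, adjusted p 1.55e-05, edgeR), or 48.0-fold. Ifitm6 stood at 200, 302 and 479 CPM in the joint and at 6.06, 7.13 and 9.83 CPM in the skin, a log2 difference of 5.41 ± 0.392. For both genes the highest skin library lay far below the lowest joint library. Retnlg was higher by 4.13 ± 0.597 on the log2 scale (adjusted p 0.000728) and Ly6g by 3.76 ± 0.474 (adjusted p 0.000348).

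Padi4 held 69.3, 111 and 176 CPM in joint and 11.04, 17.95 and 26.46 CPM in skin nonmigrated libraries, a log2 difference of 2.68 ± 0.398 (adjusted p 0.000837, edgeR). Ceacam1 held 158, 165 and 225 CPM in joint libraries and was 2.08 ± 0.199 higher on the log2 scale (adjusted p 7.68e-05). Cd177 and Ceacam1 also stand in a list that the study chose on these samples, so their direction here is not independent evidence.

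Csf3r, in contrast, overlapped between the sites, at 329, 421 and 579 CPM in joint and 490, 631 and 433 CPM in skin nonmigrated libraries. The lowest library of all was a joint one, the highest a skin one, and the log2 difference was -0.23 ± 0.455 (adjusted p 0.737, edgeR). Trem1 held 206, 270 and 380 CPM in joint and 226, 211 and 158 CPM in skin libraries, with a log2 difference of 0.52 ± 0.533 (adjusted p 0.492). For neither gene does the missed threshold show that the levels are the same.

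Stfa2l1 and Cxcr1 ran against the other genes. Stfa2l1 held 19.5, 35.6 and 50.2 CPM in joint libraries and 133, 249 and 81.5 CPM in skin libraries, with no overlap, a log2 difference of -2.14 ± 0.451 (adjusted p 0.00551, edgeR). Cxcr1 held 0.383, 0.897 and 1.14 CPM in joint libraries and 6.18, 10.5 and 3.59 CPM in skin libraries, also with no overlap, a log2 difference of -3.07 ± 0.576 (adjusted p 0.0031). Both passed at an adjusted p under 0.05 and in the DESeq2 Wald test. For Stfa2l1, 24.6% of the 50-base words of its transcripts also occur in Stfa2 or Gm49652, and for Ceacam1 30.4% occur in Ceacam2, Ceacam10 or other genes. The share was 10.7% for Csf3r, 5.51% for Cd177 and 0.448% for Ly6g. Reads that align to more than 1 place are left out of the counts, so these genes may be undercounted.

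The count of 6 depended on the libraries fitted. A fit of only the 6 nonmigrated libraries called none of the 10, with adjusted p between 0.00194 and 0.0091 for the 6 genes and nearly the same log2 differences, and it called 0 of all genes higher in the joint. Without replicate 2 or 3 of the joint nonmigrated group, or without replicate 1 or 2 of the skin nonmigrated group, 3 were called: Cd177, Ceacam1 and Ifitm6. Without replicate 3 of the skin nonmigrated group 8 were called, the 6 higher in the joint and Stfa2l1 and Cxcr1 higher in the skin. Leaving out any 1 of the 6 migrated libraries, which enter the fit and not the comparison, left 4 or 5 called, without Padi4 each time. Over the 12 fits that each lacked 1 library, Cd177, Ceacam1 and Ifitm6 were called in 12, Ly6g in 7, Retnlg in 5 and Padi4 in 2.

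To set the genes against one another inside each library, the reads of each were divided by those of Csf3r, a comparison chosen after the data were seen and given as values only. Per 100 Csf3r reads, joint nonmigrated libraries held 83.7, 121 and 140 Cd177 reads and skin nonmigrated libraries 2.79, 1.70 and 2.02, a ratio of means of 52.9. Ifitm6 differed by a ratio of 46.4, Retnlg by 18.6, Ly6g by 15.3, Padi4 by 6.95 and Ceacam1 by 4.97, each higher in the joint. Trem1 kept closest to Csf3r, with 62.8 to 65.6 reads per 100 Csf3r reads in joint and 33.4 to 46.2 in skin nonmigrated libraries. Stfa2l1 was 3.7 times and Cxcr1 7.11 times higher in the skin on this measure. The 3 libraries of each site lay apart from those of the other for 9 of 9 ratios.

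**Figure D2:**
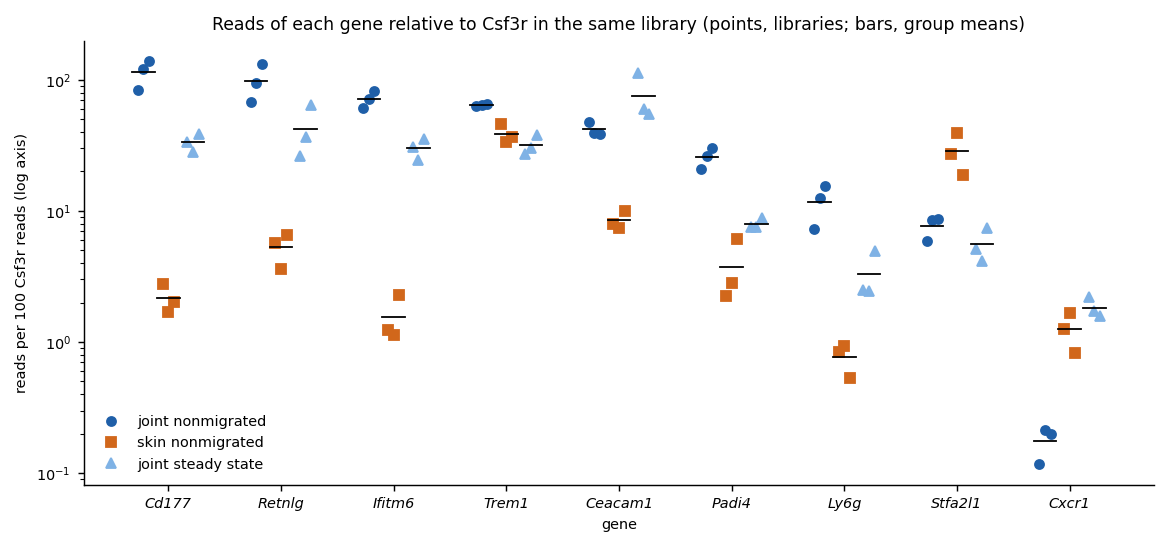
Reads of 9 genes per 100 Csf3r reads in the same library, on a log axis, for joint nonmigrated (circles), skin nonmigrated (squares) and joint steady state libraries (triangles), with group means as bars. Joint nonmigrated libraries exceed skin nonmigrated libraries for 7 genes and fall below them for Stfa2l1 and Cxcr1; joint steady state libraries lie between the sites for Cd177, Retnlg, Ifitm6, Ly6g and Padi4.

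Granule genes of immature granulocytes, which developing neutrophils make before the mature genes, differed between the sites in the same direction as the 6 genes. Of 10 such genes, 8 were called higher in joint than in skin nonmigrated cells. Their summed level was 5260, 10840 and 17610 CPM in joint and 796, 382 and 251 CPM in skin nonmigrated libraries, and the highest and lowest joint libraries were the same as for the mature genes. Ngp, which encodes neutrophilic granule protein, had a group mean of 4455 CPM in joint and 20.5 CPM in skin nonmigrated cells, a log2 difference of 7.76 ± 0.702, and Ltf, which encodes lactoferrin, 2675 and 12.5 CPM, a log2 difference of 7.74 ± 0.841. Chil3 differed by 1.01 ± 0.621 and was not called (adjusted p 0.243, edgeR). The part of immature granulocytes in the 6 differences was not tested.

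Of 17 other genes of mature neutrophils, 3 were called higher in the joint (Pglyrp1, Hp and Wfdc21) and 0 lower, with a median log2 difference of -0.06. S100a8 and S100a9, which encode the calprotectin subunits, were higher in the joint by 2.58 ± 0.574 (adjusted p 0.00733, edgeR) and 2.91 ± 0.515 (adjusted p 0.00223), without passing the threshold, whereas Clec4d, a C-type lectin receptor, was at 276 CPM in joint and 1039 CPM in skin nonmigrated cells, a log2 difference of -1.92 ± 0.431 (adjusted p 0.0077). Of 13 chemoattractant receptors and adhesion molecules, 1, Ccr1, was called lower in the joint, against 319 of the 16777 genes tested. Cxcr2, the nearest paralogue of Cxcr1, did not follow it, at 130 and 138 CPM, a log2 difference of -0.09 ± 0.49 (adjusted p 0.907). Of 25 paralogues tested, none was called by edgeR, 11 had an unadjusted p under 0.05 and DESeq2 called 4.

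Among paralogues, the gene next to a member could move with it or not. Ceacam10 was at 18.6 CPM in joint and 1.08 CPM in skin nonmigrated cells, a log2 difference of 4.10 ± 0.584 (adjusted p 0.00117, edgeR), in the direction of Ceacam1. Gm5483, of the stefin A cluster, was at 11.4 and 45.5 CPM, a log2 difference of -2.01 ± 0.552 (adjusted p 0.0201), in the direction of Stfa2l1, whereas Stfa2 was at 8.21 and 7.28 CPM. Ifitm2 and Ifitm3, at 365 and 386 CPM in the joint and 322 and 332 CPM in the skin, differed by 0.18 ± 0.208 and 0.22 ± 0.185 on the log2 scale, unlike Ifitm6.

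Of markers of other cell types, B cell markers were called higher in joint than in skin nonmigrated cells in 4 of 4 cases, with the sums given above. Of 6 dendritic cell markers, Fscn1 was called lower in the joint. None of 6 T cell markers was called by edgeR, while 6 had an unadjusted p under 0.05 and DESeq2 called 3. None of 7 macrophage markers was called between the sites by edgeR or DESeq2, and 5 had an unadjusted p under 0.05. Mast cell markers were at 149 to 349 CPM in joint libraries and at 21.2, 11.1 and 310 CPM in skin libraries, the last being replicate 3, and none of 4 was called by edgeR or DESeq2, with 0 at an unadjusted p under 0.05. Their part in the differences of the 10 genes was not tested.

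**Figure D3:**
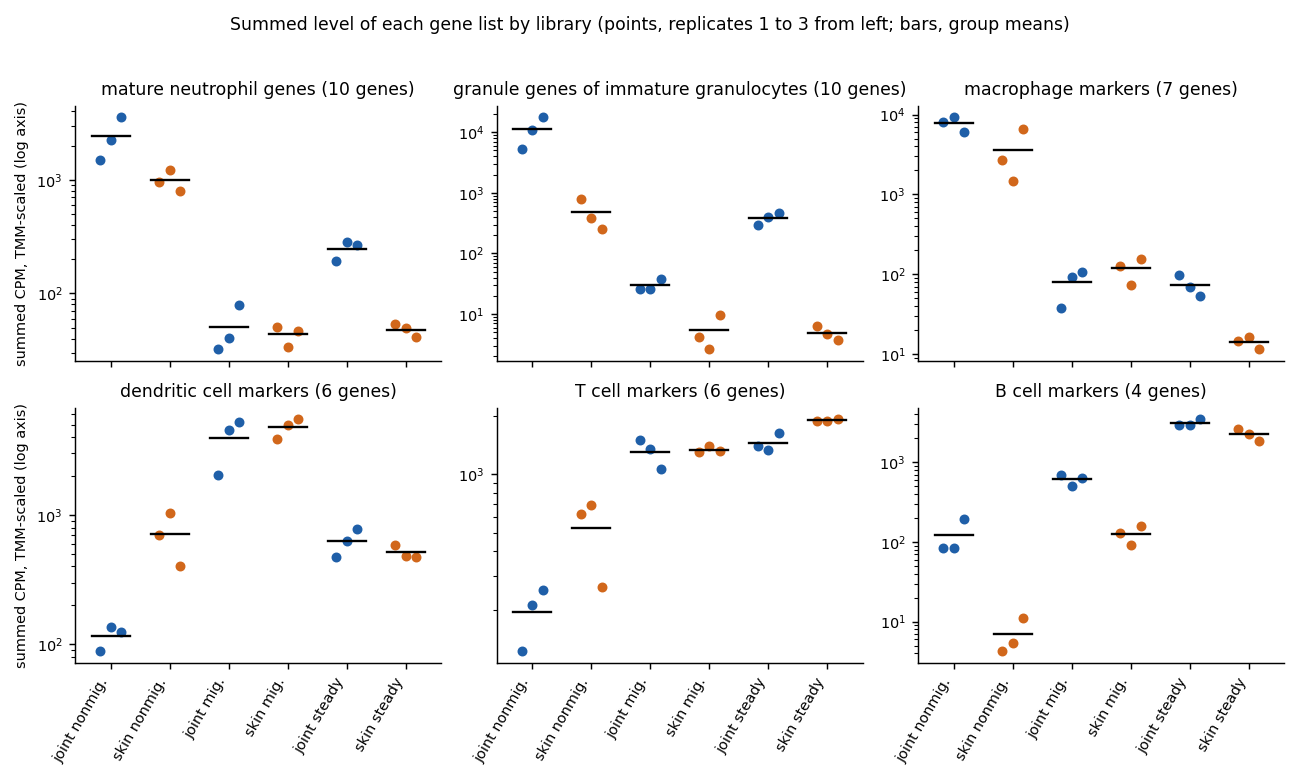
Summed level of 6 gene lists in every library, in TMM-scaled CPM on a log axis; blue points are joint and orange points skin libraries and bars are group means. The mature neutrophil genes and the granule genes are highest in joint nonmigrated libraries, macrophage markers are high in nonmigrated libraries of both sites, and dendritic and T cell markers are higher in every node group than in joint nonmigrated libraries.

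The next comparison set the migrated cells, which are the sorted red cells from inflamed tissue, against the cells labelled as having moved to the same nodes without inflammation. The labels do not show that both were sorted by the same gate, so the sort and inflammation cannot be told apart. The migrated groups hold red cells only and so do not measure the whole node. What part of the node the steady state groups hold is not known beyond their label. In the joint-draining node, 7 of the 10 genes were called lower in joint migrated than in joint steady state cells, against 3.5% of the 17107 genes tested. They include Ly6g, which passed the filter only through the joint steady state libraries. The libraries did not overlap for any of the 10 genes and the median log2 difference was -3.23, beside -0.022 over all genes. In the skin-draining node, 1 of the 10, Cd177, was called lower in skin migrated than in skin steady state cells, against 8.51% of the genes tested. That count is near the share over all genes. The median there was 0.34, and 0.73 over the 9 genes left without Ly6g, which was at or under the floor in both skin node groups. Of 17 other mature neutrophil genes, 7 were called higher and 0 lower in skin migrated cells, against 2842 of the 17107 genes tested called higher. Of 13 chemoattractant receptors and adhesion molecules, 6 were called higher and 0 lower there. In the joint node the first list had 3 called higher and 8 lower, and the second 2 higher and 4 lower.

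In the joint node, Retnlg stood at 14.4, 34.8 and 47.8 CPM at steady state and at 1.60, 0.958 and 3.88 CPM in migrated libraries, a log2 difference of -3.88 ± 0.582 (SE, adjusted p 0.000101, edgeR). Cd177, at 18.4, 26.9 and 29.0 CPM at steady state, was lower by a log2 difference of -3.59 ± 0.244. Every migrated library was below every steady state library for both genes. Ly6g differed by -3.62 ± 0.463, Stfa2l1 by -3.64 ± 0.475, Ifitm6 by -3.31 ± 0.359, Cxcr1 by -3.15 ± 0.482 and Ceacam1 by -1.32 ± 0.183, all called. Csf3r, at 55.0, 95.4 and 74.8 CPM at steady state, differed by -2.22 ± 0.445 and missed the threshold narrowly (adjusted p 0.00101). Trem1 (adjusted p 0.0035) and Padi4 (adjusted p 0.00208) also missed it. Without replicate 3 of the joint migrated group, 9 of the 10 were called.

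In the skin node, Cd177 was at 1.46, 1.16 and 0.794 CPM at steady state and at 0.0931, 0.200 and 0.266 CPM in migrated libraries, a log2 difference of -2.56 ± 0.387 (adjusted p 6.7e-05, edgeR). Csf3r ran the other way, at 5.59, 5.14 and 3.27 CPM at steady state and 16.0, 9.84 and 10.6 CPM in migrated libraries. These did not overlap, but the log2 difference of 1.40 ± 0.468 was not called (adjusted p 0.018). Ceacam1, at 43.3, 38.8 and 34.9 CPM at steady state, differed by -0.51 ± 0.183 on the log2 scale (adjusted p 0.0253) with no overlap. Per 100 Csf3r reads, Cd177 was at 22.5 to 26.1 reads in skin steady state and 0.583 to 2.52 reads in skin migrated libraries, the latter from 2, 4 and 6 Cd177 reads.

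Markers of other cell types also differed in these comparisons. Of the 17107 genes tested, 2116 were called higher and 598 lower in joint migrated than in joint steady state cells. In skin migrated against skin steady state cells, 2842 were called higher and 1455 lower. In the joint node, B cell markers were called lower in migrated cells in 4 of 4 cases (median log2 difference -2.31), with sums of 504 to 699 CPM against 2961 to 3462 CPM at steady state. Dendritic cell markers were called higher in 4 of 6 cases (Fscn1, Flt3, Zbtb46 and Xcr1; 2038 to 5247 against 471 to 779 CPM), mast cell markers in 4 of 4 (17.9 to 246 against 1.47 to 2.51 CPM) and proliferation markers in 3 of 3 (554 to 742 against 64.5 to 111 CPM). None of 7 macrophage markers was called by edgeR or DESeq2, with 4 at an unadjusted p under 0.05 and sums of 38.3 to 107 against 53.0 to 97.6 CPM.

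In the skin node, B cell markers were called lower in migrated cells in 4 of 4 cases (median log2 difference -4.15), with sums of 91.7 to 157 CPM against 1857 to 2589 CPM at steady state. Macrophage markers were called higher in 6 of 7 cases (74.3 to 156 against 11.6 to 16.6 CPM), dendritic cell markers in 3 of 6 (Fscn1, Flt3 and Zbtb46; 3907 to 5499 against 475 to 586 CPM) and proliferation markers in 3 of 3 (405 to 712 against 43.4 to 60.01 CPM). T cell markers were called by edgeR in none of 6 at either node, with 3 at an unadjusted p under 0.05 in each and 1 in the joint and 0 in the skin called by DESeq2. Their sums were 1069 to 1511 against 1342 to 1637 CPM in the joint node and 1300 to 1400 against 1885 to 1923 CPM in the skin node. The part of these cell types in the differences of the 10 genes was not tested.

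The difference between these changes of the 10 genes was tested as an interaction, added after the data were seen. None of the 10 genes was called by edgeR, against 0.889% of the genes tested, while 8 of the 10 had an unadjusted p under 0.05 and the DESeq2 Wald test called 4 (Csf3r, Ifitm6, Stfa2l1 and Padi4). All 10 estimates were negative, with a median of -3.04, beside 0.001 over all genes. Without replicate 3 of the joint migrated group, Csf3r and Trem1 were called. By the same edgeR test, 5 of 17 other mature neutrophil genes and 4 of 13 chemoattractant receptors and adhesion molecules were called, each with a negative difference.

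Joint and skin steady state cells differed strongly in these genes. Of the 10, 8 were called higher in the joint-draining node, against 1.4% of the 17107 genes tested. They include Ly6g, which passed the filter only through the joint steady state libraries. The median log2 difference was 4.51, beside 0 over all genes, and stayed at 4.51 with Ly6g at the lower bound of its counting interval. Csf3r held 55.0, 95.4 and 74.8 CPM against 5.59, 5.14 and 3.27 CPM, a log2 difference of 3.99 ± 0.488 (SE, adjusted p 0.000181, edgeR). Retnlg was higher by 6.14 ± 0.687, Stfa2l1 by 5.70 ± 0.582, Ifitm6 by 5.08 ± 0.406, Trem1 by 4.60 ± 0.65, Cd177 by 4.42 ± 0.258 and Padi4 by 3.20 ± 0.359 on the log2 scale.

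Ly6g was read 325 times in the joint steady state group and 2 times in the skin steady state group, a ratio of levels of 150 with a 95% counting interval of 41.1 to 1240. Cxcr1 lay apart between the groups at 1.20, 1.65 and 1.18 against 0.247, 0.324 and 0.244 CPM and was not called (log2 difference 2.27 ± 0.453, adjusted p 0.00708, edgeR). Ceacam1 overlapped, at 61.7, 57.5 and 41.4 against 43.3, 38.8 and 34.9 CPM, a log2 difference of 0.45 ± 0.18 (adjusted p 0.162). Per 100 Csf3r reads it stood at 755 to 1066 reads there and at 7.47 to 9.98 reads in skin nonmigrated libraries. Leaving out replicate 1 of the skin steady state group left 3 genes called (Ly6g, Cd177 and Ifitm6), and leaving out its replicate 2 or 3 left 4, with Stfa2l1 added.

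Other neutrophil genes were also higher in the joint-draining node at steady state. Of 17 other mature neutrophil genes, 15 were called higher in joint steady state cells, with S100a8 at a mean of 194 against 2.77 CPM and a log2 difference of 6.11 ± 0.498. Of 9 granule genes tested, 5 were called higher (Camp, Ngp, Ltf, Lcn2 and Chil3). Of 13 chemoattractant receptors and adhesion molecules, 8 were called higher, Cxcr2 among them with 4.41 ± 0.505 on the log2 scale. None of the 4 B cell, 6 T cell or 6 dendritic cell markers was called by edgeR or DESeq2, and 3, 3 and 1 of them had an unadjusted p under 0.05. Csf1r alone of 7 macrophage markers, and Ccr2 and Plac8 of 4 monocyte markers, were called higher. Whether the steady state groups differ in handling, in PBS injection or in site cannot be told apart from their labels.

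The last comparison set joint against skin migrated cells, the red cells of the draining nodes. None of the 10 genes was called by edgeR, against 0% of the 16777 genes tested, while 3 of the 10 and 2770 of all genes had an unadjusted p under 0.05, and the DESeq2 Wald test called 2 of the 10 (Cd177 and Ifitm6). The median log2 difference was 1.07, or 1.00 with Ly6g at its bound, beside -0.002 over all genes. Cd177 was higher in every joint than in every skin migrated library (log2 difference 3.40 ± 0.563, adjusted p 0.0151, edgeR), as was Ifitm6, at 1.79, 1.99 and 2.81 against 0.652, 0.0999 and 0.310 CPM (2.60 ± 0.524, adjusted p 0.0311). Ly6g held 27 reads in the joint and 1 in the skin migrated group, a ratio of levels of 12.5 with a 95% counting interval of 2.06 to 513. Csf3r and the other 6 genes overlapped.

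**Figure D4:**
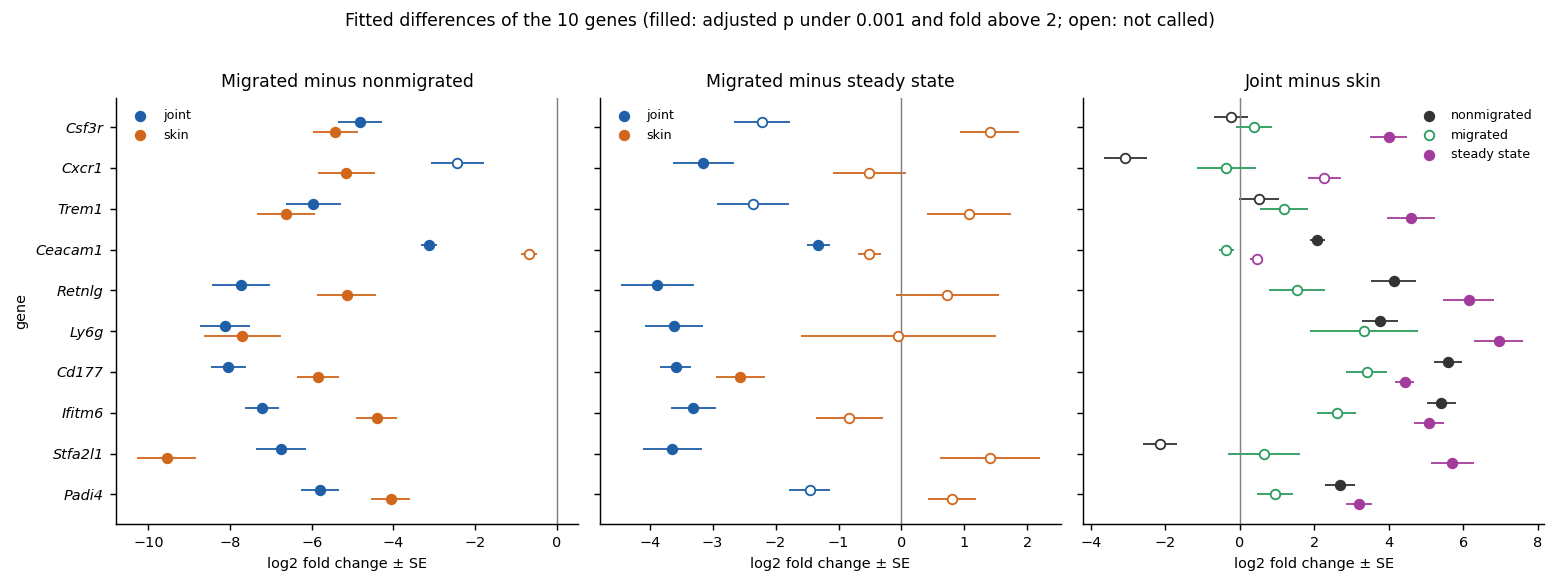
Log2 fold change and standard error of each of the 10 genes from the edgeR fits, for migrated minus nonmigrated cells, migrated minus steady state cells and joint minus skin cells; filled points were called and open points were not. The changes between tissue and node are all below 0 in the first panel, and in the third panel Csf3r, Stfa2l1 and Cxcr1 are the genes whose nonmigrated difference is below 0; points for Ly6g that involve skin migrated or skin steady state cells rest on 1 or 2 reads.

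The pathways around the 10 genes were described from fixed lists. Of 12 ligands and partners, 6 were called lower in migrated than in nonmigrated cells at each site, Cxcl2, a chemokine ligand of Cxcr2, among them with group means of 1072 and 16.9 CPM in the joint and 2667 and 17.7 CPM in the skin. Stat3, which acts downstream of the receptor encoded by Csf3r, differed by 0.07 ± 0.168 in the joint (adjusted p 0.739, edgeR) and by -0.06 ± 0.168 in the skin (adjusted p 0.785), and Socs3, a feedback inhibitor of that pathway, was called lower by -2.31 ± 0.166 and -2.24 ± 0.166. Between joint and skin nonmigrated cells, Pglyrp1 was called higher and Cxcl3 and Pecam1 lower in the joint. Of 7 granulocyte transcription factors, 5 were called lower in joint migrated and 6 in skin migrated cells, and none was called between the nonmigrated sites by edgeR, where 6 had an unadjusted p under 0.05 and DESeq2 called 3. Spi1, which encodes PU.1, held 441 and 385 CPM in joint and skin nonmigrated cells and Cebpb 222 and 341 CPM.

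Granule genes of immature granulocytes were called lower in migrated than in nonmigrated cells in 10 of 10 cases in the joint, against 12.6% of the genes tested. In the skin they were called lower in 3 of 10 (Ngp, Lcn2 and Chil3), against 12.4%, and Elane and Ms4a3 were at the floor in the tissue itself. Of 17 other mature neutrophil genes, 12 were called lower in migrated cells in the joint and 15 in the skin. Eosinophil markers were called in 1 of 4 cases in the joint, Epx, and in none of 4 in the skin by edgeR or DESeq2, where 1 had an unadjusted p under 0.05. Erythroid markers were called in none of 3 at either site by edgeR or DESeq2, with 0 in the joint and 2 in the skin at an unadjusted p under 0.05. Mast cell markers were called in none of 4 by edgeR at either site, while DESeq2 called 4 in the skin, where 4 also had an unadjusted p under 0.05, and 0 in the joint. Stromal, endothelial and keratinocyte markers were called lower in 2 of 6 cases in the joint (Col1a1 and Col1a2) and 5 of 6 in the skin, monocyte markers in 3 of 4 at each site (Ccr2, Cx3cr1 and Plac8), and of 3 proliferation markers Top2a was called higher in the skin.

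The likeness of profiles over the 18 libraries was computed as Pearson's r of log2(CPM + 1) and is descriptive, since the libraries fall into 6 groups. Between pairs of the 10 genes it ran from 0.227 for Ceacam1 and Cxcr1 to 0.992 for Cd177 and Ifitm6, and Csf3r and Trem1 had 0.991. Against the mean profile of the 10, Trem1, Retnlg and Padi4 were closest (0.974, 0.973 and 0.973) and Cxcr1 was farthest (0.602). Outside the 10 genes, the closest to the mean profile were Hp (0.989), Mmp8 (0.989), Mmp9 (0.988), S100a8 (0.987), Siglece (0.986), S100a9 (0.986), Trem3 (0.986), Nlrp12 (0.985), Lcn2 (0.981) and Chil1 (0.976). Mmp8, which encodes neutrophil collagenase, had group means of 442 CPM in joint nonmigrated, 125 in skin nonmigrated, 27.2 in joint steady state, 2.26 in joint migrated, 0.649 in skin migrated and 0.413 CPM in skin steady state cells.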

How the data were processed

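RNA sequencing read counts of 18 mouse libraries in 6 groups of 3 were used. Per the labels and methods, the authors sequenced paired reads on an Illumina instrument, trimmed them with Trim Galore, aligned them with TopHat2 to mm10 with Ensembl gene models, and counted reads per gene with HTSeq in its default mode. The deposited values are these raw counts, which leave out reads that align to more than 1 place (9.24 to 12.7% of each library's total here) or to more than 1 gene (1.84 to 2.37%). Whether the library kit marked strand is not given in the sources used here, so reads of overlapping antisense genes may not be told apart. No reads were realigned. Summary lines (5) were removed, leaving 49585 genes, of which 49326 matched GENCODE M21 for symbols and exon lengths.

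Genes were tested with edgeR 4.0.16 in R 4.3.3 (quasi-likelihood F test, TMM, filterByExpr with a minimum count of 10, group as the only factor) in 2 fits of 12 libraries: the inflamed groups (16777 genes) and the lymph node groups (17107 genes). Adjustment was by Benjamini-Hochberg over all genes of a comparison. Each standard error was taken as the size of the log2 fold change over the root of its F statistic, which is unreliable for small changes of genes with few reads. The methods state an adjusted p under 0.05, which was run as an alternative to 0.001. Other alternatives were DESeq2 1.42.0, its size factors, no filter, a replicate block, fits of other libraries and leaving out each library. Intervals and the floor cover counting error only.

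The 10 genes and the lists were chosen with earlier results of these data known. Named beside them are, by rule, the most abundant genes of each list, paralogues reaching 1 CPM in a group, and the 10 genes closest to the mean profile; genes listed in brackets after a count, and genes named as called or as at the floor, were picked after their values were seen. Promoters come from RefSeq (GRCm38.p6).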

Additional observations from a re-analysis of the deposited data

Results flagged for a closer look

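At the adjusted p under 0.05 of the study's methods, and not at 0.001, some genes differed between joint and skin in how much they changed, by the interaction test of edgeR. For the change between nonmigrated and migrated cells these were Ceacam1, with a log2 difference of -2.44 ± 0.277 (SE, adjusted p 0.00105), and Ifitm6, with -2.80 ± 0.744 (adjusted p 0.0412), each with the more negative change in the joint.

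For the change between steady state and migrated cells in the node, the genes were Csf3r (-3.63 ± 0.644, adjusted p 0.00377), Retnlg (-4.61 ± 1, adjusted p 0.012), Ifitm6 (-2.48 ± 0.674, adjusted p 0.0341), Stfa2l1 (-5.05 ± 0.949, adjusted p 0.00535), Trem1 (-3.43 ± 0.871, adjusted p 0.0261) and Padi4 (-2.26 ± 0.502, adjusted p 0.0135) in the edgeR fit. Csf3r was lower in every joint migrated than in every joint steady state library and higher in every skin migrated than in every skin steady state library. No formal outlier test was run on single libraries, since the groups hold 3 each.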

How the results depend on the processing

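Across 1684 values of a gene in a comparison under an alternative, 1554 kept their direction and side of the threshold, 55 lost the call, 62 gained it and 13 changed sign, none of them of a called gene. Numbers of the 10 genes called moved by over 1.5 times in these cases. Between joint and skin nonmigrated cells, 6 became 0 in a fit of only those groups, which has fewer samples. For the difference in change on migration, 0 became 2 at an adjusted p under 0.05, 2 with DESeq2, 1 with no filter on low counts and 1 in the fit of all 18 libraries. For joint against skin migrated cells, 0 became 2 at 0.05, 2 with DESeq2 and 1 with no filter. For the difference in change in the node, 0 became 6, 4 and 5 under the same settings. For skin migrated against steady state cells, 1 became 2 at 0.05, 2 with no filter, 2 in a fit of only those groups and 0 in the fit of all 18 libraries. Leaving out each library gave 3 to 8 between nonmigrated sites, 3 to 8 between steady state sites, 6 to 9 between joint migrated and steady state cells, 0 to 1 for the migration difference, 0 to 2 for the node difference, and no change elsewhere. The cause of these shifts was not tested.

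Same-numbered libraries of migrated and nonmigrated groups correlated at 0.021, 0.254 and 0.195 in the joint and 0.173, 0.073 and 0.148 in the skin. Each matched best with its own number, a hint from the data and not the design. Elsewhere the correlations were mixed in sign, which does not bear on pairing within a site. The labels do not state pairing, so the main test left it out and a replicate block was an alternative. A replicate block called 9 and 9 genes on migration, 4 between nonmigrated sites (without Retnlg and Ly6g), 0 between migrated sites, 0 for the migration difference, 8 between joint migrated and steady state cells, 1 in the skin node, 0 for the node difference and 6 between steady state sites.

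Sign changes were all of uncalled values. Ly6g, with 1 and 2 reads in the skin migrated and steady state groups, ran from -0.91 to 1.83 for the migration difference and from -2.63 to 0.42 in the skin node when single libraries were left out, with positive values of 0.10 and 1.83 in the first (without joint nonmigrated replicate 3 or skin migrated replicate 3) and of 0.42, 0.37, 0.17 and 0.35 in the second (without skin migrated replicate 1 or 2 or skin steady state replicate 1 or 3), where DESeq2 gave 0.02. Between migrated sites, Csf3r ran from -0.41 to 0.81, Trem1 from -0.03 to 1.65 and Cxcr1 from -1.40 to 0.11. For the migration difference, Csf3r ran from -0.18 to 1.04 and Trem1 from -0.55 to 1.11. Csf3r and Trem1 turned negative without joint migrated replicate 3, and Cxcr1 positive without joint migrated replicate 1. Retnlg ran from -0.45 (without skin migrated replicate 3) to 1.18 in the skin node. Over all genes, the numbers called higher in joint than in skin nonmigrated cells ran from 0 to 914 (192 as reported), those called higher in joint than in skin steady state cells from 83 to 553 (239), those for the migration difference from 1 to 1029 (20) those for the node difference from 48 to 1045 (152) and those in either direction between migrated sites from 0 to 191 (0). The numbers called lower ran from 1489 to 3079 (2110) on migration in the joint, 1342 to 3307 (2084) on migration in the skin, 410 to 1250 (598) in the joint node and 1078 to 2571 (1455) in the skin node, with the highest count of every comparison at an adjusted p under 0.05. Scaled by library totals alone, the level of a gene in a group was 0.85 to 1.13 times that with TMM, and with DESeq2 size factors 0.99 to 1.01 times.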
